A study of Mus musculus with 6 samples.

Results

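Cluster 7 is the sparsest of the 3 Leiden clusters that the study assigned to the mesenchyme of the outflow tract (OFT), the vessel that carries blood out of the embryonic heart. Its members were taken as the segmented cells that the authors placed inside the OFT outline and labelled cluster 7, which gave 401 of 6078 OFT cells (6.60%) and of 364721 segmented cells in all. The cells come from MERFISH, an imaging assay that finds single RNA molecules in fixed tissue by barcodes read over rounds of fluorescence imaging, here with a panel of 140 genes on sections of mouse embryos at E11.5. There were 3 Ankrd11-nchet embryos, the controls, and 3 Ankrd11-ncko embryos, the knockouts. The controls carried 1 floxed and 1 wild-type copy of Ankrd11, the knockouts carried 2 floxed copies, and all embryos carried the Wnt1Cre2 transgene; the study's methods give both genotypes the RosaYFP STOP reporter as well. Wnt1Cre2 drives recombination in the neural crest, so cells of other origin keep Ankrd11 in either group, and no embryo without Cre or without a floxed copy is among the samples. Each embryo gave 1 section, and the embryo was the replicate.

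Cardiac neural crest cells (CNCCs) leave the dorsal neural tube, enter the cushions of the OFT and build the septum that divides it into the aorta and the pulmonary artery. On the way they pass from a migratory, mesenchymal state towards vascular smooth muscle. Ankrd11 encodes a chromatin regulator. Genes that mark the mesenchymal state include Twist1, a transcription factor of neural crest mesenchyme, Postn, which encodes the matrix protein periostin, Pdgfra, which encodes a receptor for platelet-derived growth factor, and Vim, which encodes the intermediate filament vimentin. The study assigned clusters 2, 3 and 7 to this tissue from their place in the cushions and from genes that include Postn, Pdgfra and Sox9, a further transcription factor of the neural crest. Counts of single genes are not used here, so neither the loss of Ankrd11 in the knockouts nor the mesenchymal identity of cluster 7 was checked, and cells of second heart field origin in it cannot be told apart from CNCCs. What follows describes how many cells the cluster held, how many transcripts and panel genes they carried, and how these values lay in the other OFT cells of the same embryo.

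The OFT outlines held 814 to 1292 cells per embryo, and no cell identifier was shared between embryos. The OFT cells outside cluster 7 held medians of 414.5, 764.5 and 637 transcripts in the controls and 542.5, 656 and 707 in the knockouts. The first control embryo was thus the shallowest and the second the deepest. The study states that 4 embryos (2 of each genotype) were processed at one facility and 2 (1 of each) at another, without naming them in the sources used here. Identifiers of cells begin with the same 7 digits in the third control embryo and the third knockout embryo, and with other digits in the other 4. What these digits stand for is not given in the sources used here, and values within each set are given beside the pooled ones.

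Cluster 7 was present in all 6 embryos but in very unequal amounts. It held 85, 20 and 47 cells in the controls and 70, 82 and 97 cells in the knockouts. In the control embryos it made up 9.35% (95% Wilson interval 7.63% to 11.4%), 2.03% (1.32% to 3.12%) and 4.46% (3.37% to 5.88%) of the OFT cells. In the knockout embryos it made up 5.42% (4.31% to 6.79%), 8% (6.49% to 9.82%) and 11.9% (9.87% to 14.3%). These intervals cover counting error only. The intervals of the first and second control embryos lay far apart, so embryos of the same genotype differed by more than counting error. The first control embryo, with the second highest share of all, lay among the knockout embryos, and the genotypes overlapped.

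The mean share was 5.28% ± 3.73 in the control and 8.44% ± 3.27 in the knockouts (SD, n = 3 and 3), so that they lay 3.16 percentage points apart, less than either SD (exact 2-sided permutation test, p = 0.4, 0.743 after Benjamini-Hochberg adjustment for 13 clusters). Of the 13 clusters, 15.4% had shares without overlap between the genotypes, and cluster 7 was not among them. With 3 embryos against 3, p cannot go below 0.1 in this test. The difference was 7.46 percentage points between the 2 embryos with like identifiers and 1.02 among the other 4. It was 1.43 without the third knockout embryo, 1.54 without the second control embryo and 5.20 without the first control embryo. As cells per outline, the means were 50.7 ± 32.7 and 83 ± 13.5 (SD, n = 3 and 3, exact permutation p = 0.3, adjusted p = 0.975 over the 13 clusters, of which 15.4% did not overlap). Among the cells of clusters 2, 3 and 7 alone, cluster 7 took 28.9%, 6.39% and 12.7% in the control and 15.2%, 18.5% and 21.5% in the knockouts. The control embryos lay on either side of all the knockout embryos on this scale (exact permutation p = 0.8, n = 3 and 3).

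The share of cluster 7 ran in opposite order with depth in the 2 genotypes. Among the control embryos it fell from the shallowest to the deepest embryo, from 9.35% through 4.46% to 2.03%. Among the knockout embryos it was 5.42% in the shallowest, 8% in the next and 11.9% in the deepest. Over all 6 embryos there was no clear relation between the share of cluster 7 and the median transcripts of the other OFT cells (Pearson r = -0.29, exact permutation p = 0.569; Spearman rho = -0.26, exact permutation p = 0.658; both 0.658 after adjustment over 4 such tests). Without the 2 embryos farthest from the median depth, the first and second control embryos, r was 0.75 over 4 embryos. The share among cells of clusters 2, 3 and 7 gave r = -0.72 (exact permutation p = 0.125, adjusted p = 0.5, n = 6) and rho = -0.49 (exact permutation p = 0.356, adjusted p = 0.658), and r = 0.65 without the same 2 embryos. Each relation therefore rests on the first and second control embryos, and 3 embryos per genotype are too few for a correlation within a genotype.

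**Figure D1:**
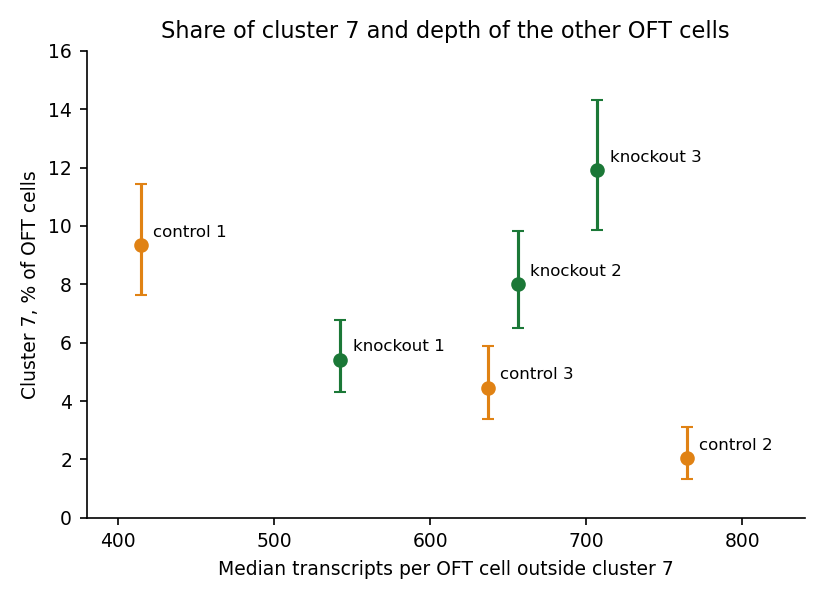
Cells of cluster 7 as a share of an embryo's OFT cells (y axis, %, with 95% Wilson intervals) against the median transcripts of the OFT cells outside cluster 7 (x axis), orange for control and green for knockout embryos. The control embryos run from 9.35% at 414.5 transcripts to 2.03% at 764.5, and the knockout embryos from 5.42% at 542.5 to 11.9% at 707.

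Cells of cluster 7 were sparse in every embryo, although not empty. Their median number of transcripts was 158, 158.5 and 153 in the controls and 170, 211.5 and 204 in the knockouts. The lowest cell held 27 transcripts and the highest 642. As clusters were built from the counts of these cells, their depth against other clusters is a description and carries no test. Clusters 2 and 3 together held medians of 442, 928 and 708.5 transcripts in the control and 674.5, 670.5 and 759 in the knockouts. The median of cluster 7 was 0.171 to 0.357 times that of clusters 2 and 3 in the same embryo, lowest in the second and highest in the first control embryo. No cell of cluster 7 exceeded the median of clusters 2 and 3 of its own embryo, and 86.6% to 100% of its cells lay under their 10th percentile. In the whole section outside the OFT, 11.1% to 15.7% of the cells held fewer transcripts than the median cell of cluster 7, so cells this sparse were common elsewhere in the embryo.

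**Figure D2:**
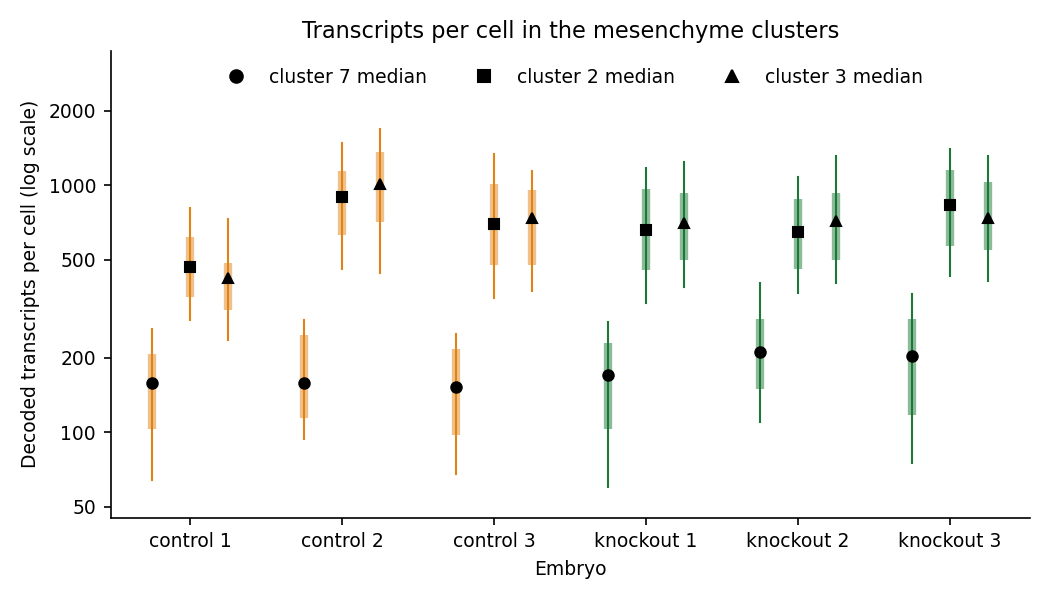
Decoded transcripts per cell (y axis, log scale) in clusters 7, 2 and 3 of each embryo (x axis), orange for control and green for knockout embryos. Black symbols are medians, thick bars run from the 25th to the 75th percentile and thin lines from the 10th to the 90th; cluster 7 medians lie between 153 and 211.5 in all embryos while those of clusters 2 and 3 range from 419 to 1014.

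Over all 6 embryos the median depth of cluster 7 varied less than that of any of the other 9 clusters found in every embryo. Its highest embryo median was 1.38 times its lowest, and the embryo medians had a coefficient of variation of 14.5%. The other coefficients ran from 17.0% in cluster 5 to 33.2% in cluster 10. In cluster 2 the highest embryo median was 1.91 times the lowest and in cluster 3 it was 2.42 times, with the first and second control embryos at the ends. The order did not hold among the knockouts alone, where the coefficient of variation was 11.3% in cluster 7 against 2.46% in cluster 3, 7.11% in cluster 5, 7.17% in cluster 6 and 11.1% in cluster 8. Among the controls it was 1.94% in cluster 7 and 21.0% or more in each of the other 9 clusters. The cluster 7 medians of the 3 control embryos were nearly equal (156.5 ± 3.04 transcripts, mean ± SD), while the medians of their other OFT cells ranged from 414.5 to 764.5. Other summaries of the same cells lay further apart, with 75th percentiles of 207, 247 and 217.5 transcripts. The median of the second control embryo rests on 20 cells, with quartiles of 114 and 247, so the closeness of the medians may be accidental. Within an embryo the 75th percentile of cluster 7 was 1.92 to 2.46 times the 25th, and the genotypes overlapped (means 2.14 ± 0.119 and 2.20 ± 0.275, SD, n = 3 and 3, exact permutation p = 0.9).

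Each knockout embryo had a higher median number of transcripts in cluster 7 than each control embryo, but the separation was lost with means over cells. The means were 156.5 ± 3.04 in the control and 195.2 ± 22.1 in the knockouts (SD, n = 3 and 3), a difference of 38.7 transcripts, larger than either SD (exact permutation p = 0.1, the smallest possible, adjusted p = 1 over 10 clusters and 0.5 over the 10 results compared for cluster 7). The control SD comes from 3 medians, and that of the second control embryo rests on 20 cells. Cluster 7 was the 1 cluster of these 10, or 10%, whose embryo medians did not overlap. The first knockout embryo exceeded the highest control median by few transcripts, at 170 against 158.5, and the second and the third lay well above. The difference was 51 transcripts between the 2 embryos with like identifiers, 32.5 among the other 4 and between 30.5 and 51.3 when each embryo was left out in turn. The mean number of transcripts per cell was 160, 183 and 164 in the controls and 173, 236 and 214 in the knockouts, so the second control embryo lay above the first knockout embryo (difference 38.6, exact permutation p = 0.2, n = 3 and 3). The 25th percentile was 103, 114 and 97 transcripts in the control and 103, 150 and 117 in the knockouts, with overlap (exact permutation p = 0.3, n = 3 and 3). The 75th percentile was 207, 247 and 217.5 transcripts in the control and 230, 287 and 288 in the knockouts, also with overlap (exact permutation p = 0.2, n = 3 and 3). The 90th percentile, which was not tested, was 261, 286 and 250 transcripts among the controls and 279, 401 and 362 among the knockouts.

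Relative to clusters 2 and 3 of the same embryo, the genotypes were not separated. The log2 ratio of the medians was -1.48, -2.55 and -2.21 in the control and -1.99, -1.66 and -1.90 in the knockouts. The difference between the genotypes was 0.23 on the log2 scale (exact permutation p = 0.5, n = 3 and 3), and -0.0018 without the second control embryo. That embryo had the deepest cells of clusters 2 and 3 and the fewest cells of cluster 7.

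The low-transcript cells of the OFT belonged to a few clusters, of which cluster 7 was one. In the following bands of transcripts the upper bound is left out. Of the 212 OFT cells with fewer than 50 transcripts, 91.5% lay in cluster 10, whose embryo medians were 8 to 21 transcripts, and 14 lay in cluster 7. From 50 to 100 transcripts cluster 7 held 61 of 132 OFT cells (46.2%) and cluster 5 held 45. From 100 to 200 transcripts cluster 7 held 160 of 364 cells (44.0%), and clusters 2 and 3 together held 11. Its share of the OFT cells dropped to 21.8% from 200 to 300 transcripts and to 3.52% from 300 to 500. Every one of the 75 cells of clusters 2, 3 and 7 with fewer than 100 transcripts was in cluster 7. Over all embryos together, cluster 7 was the most frequent cluster among OFT cells with 50 to 200 transcripts and held nearly all mesenchyme cells of that depth. The second control embryo had more cells of cluster 5 than of cluster 7 in both bands (4 against 3 and 13 against 11), as did the second knockout embryo from 50 to 100 transcripts (11 against 6). Of the cells of cluster 7 over all embryos, 39.9% had 100 to 200 transcripts, with 28.9% to 55% in single embryos.

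**Figure D3:**
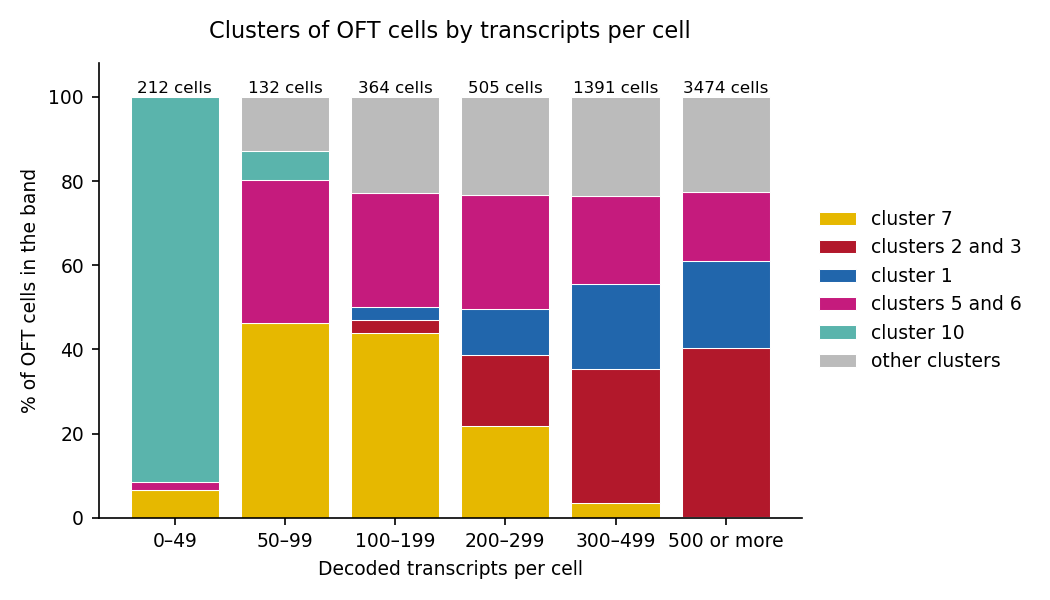
Share of OFT cells (y axis, %) in cluster 7 and in other clusters within bands of decoded transcripts per cell (x axis), all 6 embryos together, with the number of cells above each bar. Cluster 7 takes 46.2% and 44.0% of the cells from 50 to 100 and from 100 to 200 transcripts and 3.52% from 300 to 500.

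From 300 to 500 transcripts, cluster 7 took a larger share of the mesenchyme cells in each knockout than in any control embryo. The margin was small in the first knockout embryo, and some other limits of the band ended this separation. Among cells of clusters 2, 3 and 7 with 300 to 500 transcripts, cluster 7 held 5 of 102, 2 of 39 and 3 of 77 cells in the controls and 6 of 94, 14 of 104 and 19 of 77 cells in the knockouts. These are 4.90%, 5.13% and 3.90% against 6.38%, 13.5% and 24.7%, without overlap. The means were 4.64% ± 0.656 and 14.8% ± 9.22 (SD, n = 3 and 3), 10.2 percentage points apart and so by more than either SD (exact permutation p = 0.1, adjusted p = 0.3 over clusters 2, 3 and 7, of which 33.3% were higher without overlap, and 0.5 over the 10 results compared for cluster 7). The control SD rests on 5, 2 and 3 cells of cluster 7, so it leaves out most of the counting error. The difference was 5.28 percentage points without the third knockout embryo, 20.8 between the 2 embryos with like identifiers and 4.91 among the other 4. The genotypes overlapped from 250 to 500 transcripts (difference 12.5, exact permutation p = 0.2, n = 3 and 3) and from 300 to 400 (difference 13.3, exact permutation p = 0.4, n = 3 and 3). With all OFT cells of this depth as denominator, cluster 7 made up 1.36% ± 0.205 and 7.16% ± 5.54 (exact permutation p = 0.1, n = 3 and 3, adjusted p = 0.6 over 12 clusters, of which 8.33% were higher without overlap). The comparisons by band were chosen after the values were seen. From 200 to 300 transcripts the share among clusters 2, 3 and 7 was 40.9%, 44.4% and 52.0% in the control and 45%, 66.7% and 82.9% in the knockouts, with overlap (exact permutation p = 0.2, n = 3 and 3). From 100 to 200 transcripts it was 82.6% or more in every embryo. The second and the third knockout embryos had the highest shares from 200 to 300 and from 300 to 500 transcripts.

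**Figure D4:**
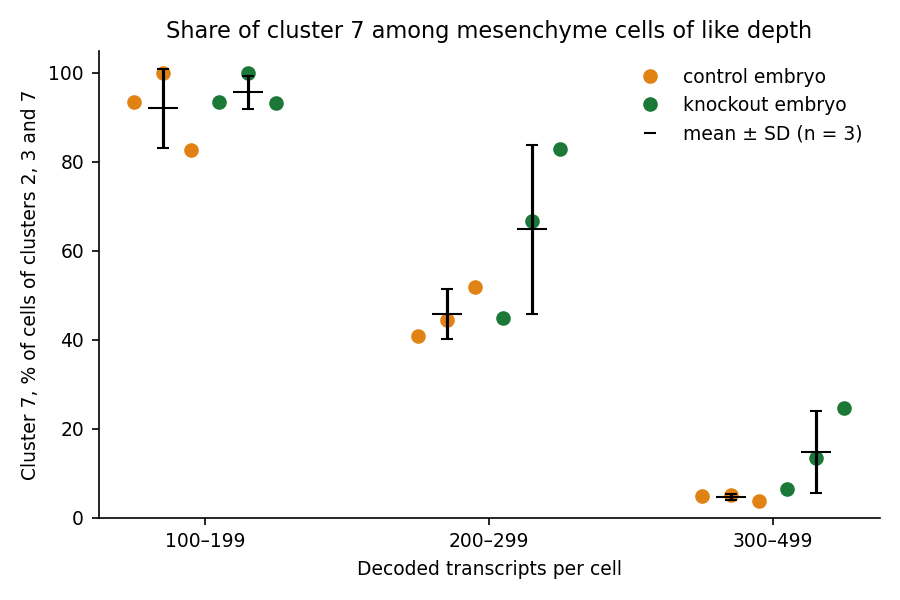
Share of cluster 7 among the cells of clusters 2, 3 and 7 (y axis, %) in 3 bands of decoded transcripts per cell (x axis), with a point for each embryo (orange, control; green, knockout) and the mean ± SD of 3 embryos in black. From 300 to 500 transcripts the controls span 3.90% to 5.13% and the knockouts 6.38% to 24.7%.

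The median cell of cluster 7 detected 57, 59.5 and 55 of the 140 panel genes in the controls and 58, 60.5 and 59 in the knockouts. The means, 57.2 ± 2.25 and 59.2 ± 1.26 genes, differed by 2 genes and the genotypes overlapped (SD, n = 3 and 3, exact permutation p = 0.3). The median transcripts per detected gene were 2.69, 2.70 and 2.82 in the controls and 2.74, 3.56 and 3.51 in the knockouts. The first knockout embryo lay among the controls on this measure and the second and the third lay above them. Cells of clusters 2 and 3 held more, with embryo medians of 4.72 to 9.30 transcripts per detected gene, but they were also deeper. This contrast was not made at like numbers of transcripts.

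Where their depths met, cells of cluster 7 detected fewer panel genes than cells of clusters 2 and 3 with a like number of transcripts. As the clusters were built from the same counts, differences between clusters are again a description and carry no test, also where all embryos share a sign. Each cell of cluster 7 was set against the cells of clusters 2 and 3 of its embryo within 10% of its transcripts, where at least 5 such cells existed, which held for 120 of the 401 cells. These were the deeper cells, with a median of 288.5 transcripts and at least 188, against a median of 143 in the 281 cells without such a match, for which the comparison gives no value. The mean difference was -6.26, -8.27 and -6.72 genes in the controls and -5.27, -7.91 and -8.11 genes in the knockouts, below 0 in 6 of 6. In the second control embryo this value rests on 2 cells. The genotypes did not differ beyond the spread of the embryos (-7.08 ± 1.05 against -7.10 ± 1.58 genes, SD, n = 3 and 3, exact permutation p = 1). Against cluster 1, which the study did not assign to the mesenchyme, the difference was -11.9 genes (mean of 6 embryos, below 0 in 6 of 6). Against cells of cluster 5 with like transcripts, cluster 7 detected 8.84 genes more (mean of 6 embryos, above 0 in 6 of 6). From 200 to 250 transcripts, for example, the median cell detected 63 genes in cluster 7, 71 in cluster 2, 69 in cluster 3 and 55 in cluster 5. Against cluster 4 the difference was -1.25 ± 4.55 genes, below 0 in 4 of 6 embryos (mean ± SD over embryos). Against cluster 8 it was -6.22 ± 4.88 genes, below 0 in 5 of 5 embryos with a match. These 5 values rest on 11 and 2 cells of cluster 7 in the first and second control embryos and on 44, 3 and 1 in the knockouts. In the second control embryo the values against clusters 1 and 4 rest on 3 and 2 cells. Against all other OFT cells but those of cluster 10 the difference was 2.85 ± 3.31 genes (mean ± SD of 6 embryos), below 0 in 2 of 6. Its highest value, 8.70 genes, came from 16 matched cells of the second control embryo. The control and knockout embryos overlapped on this measure (exact permutation p = 0.6, n = 3 and 3).

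**Figure D5:**
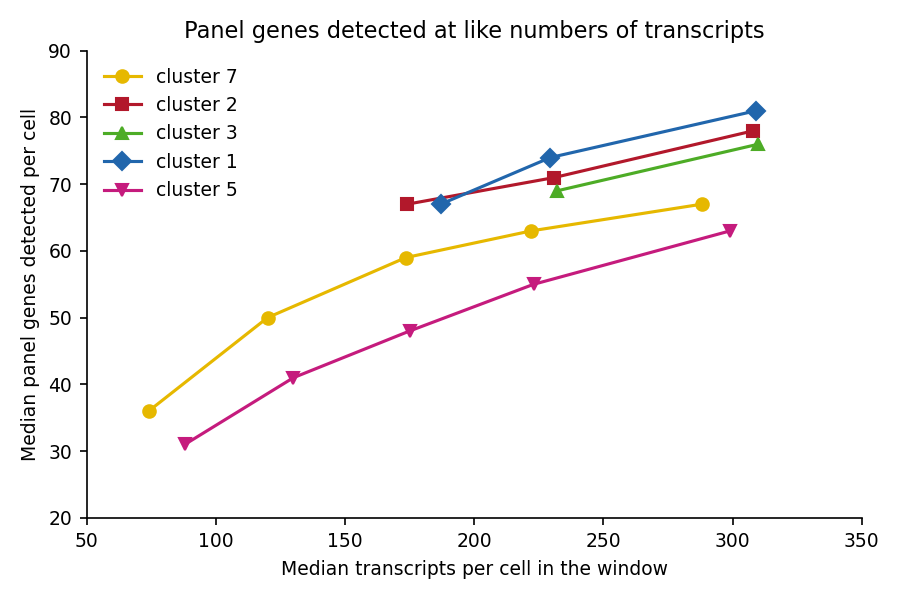
Median number of panel genes detected per cell (y axis) against the median transcripts per cell (x axis) in windows of transcripts, all 6 embryos together, for clusters 7, 2, 3, 1 and 5; a cluster with fewer than 5 cells in a window has no point. From 200 to 250 transcripts cluster 7 lies at 63 genes, clusters 2 and 3 at 71 and 69 and cluster 5 at 55.

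Cluster 7 held a smaller share of the RNA measured in the OFT than of its cells. Its 401 cells held 77215 transcripts, 1.99% of all OFT transcripts against 6.60% of the OFT cells. The share was 3.51%, 0.470% and 1.10% in the controls and 1.64%, 2.81% and 3.59% in the knockouts, with overlap (exact permutation p = 0.4, n = 3 and 3). Among the transcripts of clusters 2, 3 and 7, cluster 7 held 11.51% in the first control embryo, 1.26% in the second and 3.05% in the third, and 4.06%, 6.72% and 6.59% in the knockouts. The first control embryo alone gave 55.9% of the control cells of cluster 7, and the third knockout embryo gave 39.0% of the knockout cells.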

How the data were processed

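The authors decoded barcodes with MERlin 0.1.6, segmented cells with Cellpose, read the data with squidpy 1.3.1, drew the OFT outline by hand and clustered OFT cells in Seurat 5.0.1 (R 4.3.3) on 30 principal components with the Leiden method. The deposited count of a cell is its sum of decoded transcripts over the panel, a whole number that was not normalized. Deposited numbers of detected genes, OFT marks and cluster labels were used unchanged. The clustering resolution is not given in the sources used here.

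Cells of cluster 7 were summarized per embryo with Python 3.11.15, numpy 2.4.6, pandas 2.3.3 and scipy 1.17.1, and drawn with matplotlib 3.10.9. The means of the 3 controls and the 3 knockouts were compared by exact 2-sided permutation over all 20 divisions of the embryos, with Benjamini-Hochberg adjustment. The test was tried on simulated shares with counting error only and no further spread between embryos. The matched-depth measure was tried on genes drawn from a common curve for all clusters. Both settings are simpler than these data, so they check the code and not the power of the comparisons. No cell was filtered out. Whether the embryos came from separate litters is not given per embryo. Each p-value between genotypes is the share of the 20 divisions with a difference at least as large, and it covers these embryos only. The cluster, its markers and the comparisons were chosen with earlier results of these data known. The rule for named genes allowed only the marker genes of the study and of the cluster, as background. Alternatives were leaving out each embryo, cells with at least 50 transcripts, pooled cells, other denominators, references, summaries and windows, and the embryos of title stem AH59; the sets by identifier, a minimum of 100 transcripts and the bands of transcripts were added after the data were seen.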

Additional observations from a re-analysis of the deposited data

How the results depend on the processing

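Of 130 alternative values for the 11 results compared, 9 changed sign and 4 were marked as moved by more than the spread between embryos. Only alternatives without a test of their own were set against that spread. The other 117 kept their sign, though some changed size several-fold, and most of them were not compared with the spread. The exact permutation test cannot pass 0.05 with 3 embryos against 3, so keeping a direction is not a sign of stability. With each embryo left out in turn, the difference between genotypes ran from -2.44 to 8.82 percentage points for the share of cluster 7 among clusters 2, 3 and 7, from -0.0018 to 0.53 for the log2 depth relative to clusters 2 and 3, from -3.84 to 0.582 for panel genes at matched transcripts and from -0.064 to 0.209 for the ratio of the 75th to the 25th percentile, and the correlation of share with depth ran from -0.78 to 0.129. The sign changes came without the second control embryo, except for the percentile ratio, where they came without the first control or the third knockout embryo. Among the 4 embryos with unlike identifiers the share among clusters 2, 3 and 7 differed by -0.808 percentage points and the percentile ratio by -0.013, and among the embryos of title stem AH59 the latter differed by -0.173. Between the 2 embryos with like identifiers the differences were 7.46 percentage points for the share of OFT cells, 4 panel genes for the median, 2.48 percentage points for the share of transcripts and 20.8 for the share from 300 to 500 transcripts. The cause was not tested. No paired analysis was possible because the labels give the embryos no replicate numbers that pair them across genotypes. The 20 cells of the second control embryo limit every value of that embryo.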

Other observations

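In ascending order of the cell identifiers, OFT cells of the same cluster tended to follow one another. What the order stands for is not given in the sources used here, so these values are a description of the deposited list, chosen after the data were seen. The share of list neighbors in the same cluster, divided by the cluster's share of the OFT cells, averaged 4.49 over the 6 embryos in cluster 10 and between 1.79 and 2.77 in clusters 1 to 6, 8 and 9. In cluster 7 it averaged 1.46, the lowest mean of the 10 clusters, with 0.791 in the first knockout embryo and 1.12 to 2.46 in the other embryos. Single embryos of other clusters overlapped this range, with 1.47 to 2.08 in cluster 2 and 1.22 to 3.24 in cluster 3. The lowest value of a single embryo was 0.779, in cluster 4 of the third knockout embryo. Of the list neighbors of cluster 7 cells that were not themselves in cluster 7, 31.3%, 26.3% and 42.0% lay in clusters 2 and 3 in the controls and 38.8%, 54.2% and 57.1% in the knockouts. Clusters 2 and 3 made up 25.4%, 30.4% and 32.0% of the OFT cells outside cluster 7 in the controls and 31.9%, 38.4% and 49.5% in the knockouts. The neighbors exceeded this share in 5 of 6 embryos for cluster 7. By the same count they did so in 5 of 6 for each of clusters 2 and 3, where only the other of these 2 clusters could be counted. Among the remaining clusters it was 4 of 6 for each of clusters 4, 5 and 6, 3 for cluster 9, 1 for cluster 10 and 0 for clusters 1 and 8.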
